A study of Bos taurus with 10 samples.

Results

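GATA6, FN1 and CTSV are taken here as hypoblast genes, and on these arrays the mean of each of their probe sets was higher in bovine embryos than in adult bovine organs. They are 3 of the 6732 genes with values, and they were read from every probe set whose human platform symbol is one of them and which carried values, 6 of the 10186 analysed. GATA6 and CTSV had 1 probe set each and FN1 had 4, while 2 other FN1 probe sets were blank on all arrays. The genes had been chosen because they were higher in embryos than in adult tissues on these same arrays, so that difference is described here without a test and supports nothing. All 6 probe sets passed the filter on dim signals, but 4 of them, including those of GATA6 and CTSV, did so only because of the embryo arrays.

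The study hybridised 3 arrays of IVF embryo RNA, each labelled as a pool, from Bos taurus embryos made by fertilization of oocytes outside the animal. They were set against 7 arrays of adult bovine organs, 1 each of liver, lung, kidney, heart, brain, spleen and muscle. Bovine RNA of all 10 samples was bound to probes made for human genes. The labels used here give no stage, number or sex of the embryos, no breed or treatment, and nothing on whether the 3 pools are independent. The spread between embryo arrays may therefore be purely technical. Without a stage, the labels do not show whether the embryos held hypoblast. In RNA of whole embryos, signal from hypoblast cells, signal from other embryo cells and more RNA per cell cannot be told apart. Each organ is a single array, so the spread of the adult group is the spread between organs. The p-values of embryos against organs rest on both spreads together, and those among organs on the embryo spread alone.

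The hypoblast, or primitive endoderm, is an epithelial layer that separates from the pluripotent epiblast inside the blastocyst and goes on to line the yolk sac. In the mouse, FGF signals from epiblast precursors act through the ERK kinases to sustain GATA6, the zinc finger transcription factor that starts the endoderm programme. Cells of this layer deposit a basement membrane and secrete matrix proteins, and they take up and digest protein in lysosomes. FN1 encodes fibronectin, the matrix glycoprotein to which integrin receptors bind, and CTSV encodes cathepsin V, a lysosomal cysteine protease closely related to cathepsin L. In adults GATA6 is known as a regulator of heart, lung and gut, and the liver secretes fibronectin into plasma.

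The arrays differed in brightness before any scaling, with median deposited intensities from 99.2 in liver to 221 in the third embryo array, and they were quantile normalised. Spearman correlations over the 6775 tested probe sets were 0.796 to 0.920 between embryo arrays, 0.217 to 0.486 between embryo and organ arrays, and 0.306 to 0.724 between organs. Marker genes of the organs were mostly brightest in the organ named by the label, with 10 of 11 bright heart marker probe sets highest in heart, 14 of 15 liver ones in liver and 4 of 5 kidney ones in kidney. For spleen, 0 of 3 were highest in spleen. Human probes can match bovine RNA poorly, so a dim probe set is no proof of a low transcript level and levels of the same gene on separate probe sets do not measure its amount on a shared scale. Genome positions are not given here.

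GATA6 was bright in all embryo arrays and in adult heart. Its probe set, 210002_at, had normalised intensities of 547, 479 and 523 on the embryo arrays. Among the organs it read 409 in heart, 159 in lung, 97.8 in liver, 25.5 in spleen, 20.8 in kidney, 9.91 in brain and 8.46 in muscle. The embryo arrays lay close together and above every organ, and heart stood nearer to the embryos than to the next organ, lung. The mean was 517 ± 34.5 (SD, n = 3 embryo arrays), against 104 ± 146 (SD, n = 7 organs), and the log2 difference was 2.05. That difference is on the log2(intensity + 72.2) scale, as are all log2 values here, and the offset makes it understate changes of dim probe sets. The embryo mean was 1.26 times the heart value, 3.24 times lung and 5.28 times liver, and no fold is given for the other 4 organs, where the probe set was among the dimmest on the array.

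The rank of the GATA6 probe set within each array restates its normalised values, because quantile normalisation sets each value by its rank. The ranks are therefore no separate check. The probe set stood at the 91.3rd to 93.2nd percentile of the probe sets on the embryo arrays, against the 88.6th in heart, the 54.3rd in lung and the 33.7th in liver. In brain, kidney, muscle and spleen it stood between the 5.1st and the 10.4th percentile, among the dimmest probe sets of those arrays. Markers of heart muscle cells were not bright in embryos: the 10 measured heart markers summed to 576 to 647 on the embryo arrays, against 17345 in the heart array and 345 to 4452 in the other organs. The part of heart muscle cells in the embryo GATA6 signal was not tested.

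CTSV was bright in embryos and about as bright in adult kidney. Its probe set, 210074_at, read 650.0, 536 and 553 on the embryo arrays. Among the organs it read 548 in kidney, 294 in liver, 76.6 in lung, 61.7 in muscle, 44.0 in heart, 27.5 in brain and 1.5 in spleen. The kidney value fell inside the embryo range, above the second embryo array, so the groups overlapped. Embryos averaged 579.7 ± 61.5 (SD, n = 3) and the organs 150.5 ± 200.2 (SD, n = 7), a log2 difference of 1.95. The embryo mean was 1.06 times kidney and 1.97 times liver, and no fold is given for spleen, where the probe set was at the 2nd percentile of its array. The 6 measured kidney markers summed to 1039 to 1497 on the embryo arrays, against 1449 in kidney and 294 to 683 in the other organs. Much of the embryo sum was SLC22A8, an anion transporter, which read 715, 617 and 584 on the embryo arrays and 3.67 in kidney. The other 2 tested kidney markers did not pass, with log2 differences of 0.59 for SLC12A3 (limma adjusted p = 0.410) and 0.04 for PAX8 (0.903), and the part of these markers in the CTSV signal was not tested.

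FN1 was bright in embryos on all 4 probe sets with values, and liver and lung were the brightest organs on each of them. Probe set 210495_x_at read 896, 761 and 680.1 on the embryo arrays, against 468 in liver, 350.3 in lung, 181 in brain, 178 in muscle, 168 in kidney, 157 in spleen and 58.2 in heart. Probe set 211719_x_at read 639.6, 606 and 675 on the embryo arrays, against 367 in lung, 218 in liver, 105 in brain, 103 in muscle, 99.3 in spleen, 94.1 in kidney and 41.65 in heart. On both, every embryo array lay above every organ, and heart was the dimmest organ. The suffix x in these names means that some probes of the set are known to match other human transcripts too, and the suffix s that they match several transcripts.

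The other 2 FN1 probe sets were less clear-cut. Probe set 216442_x_at read 1186, 881 and 638 on the embryo arrays, against 555 in liver, 481 in lung, 216 in muscle, 199.9 in kidney, 173 in spleen, 148 in brain and 79.5 in heart. It had the widest embryo spread of the 6 members, 902 ± 274 (SD, n = 3), and its lowest embryo value was 1.15 times that of liver. Probe set 212464_s_at read 858, 789 and 645 on the embryo arrays, against 711 in liver, 317 in lung, 63.9 in muscle, 62.3 in spleen, 47.6 in brain, 3.33 in heart and 3.30 in kidney. Here liver fell inside the embryo range, above the third embryo array, and the embryo mean was 1.08 times liver.

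**Figure D1:**
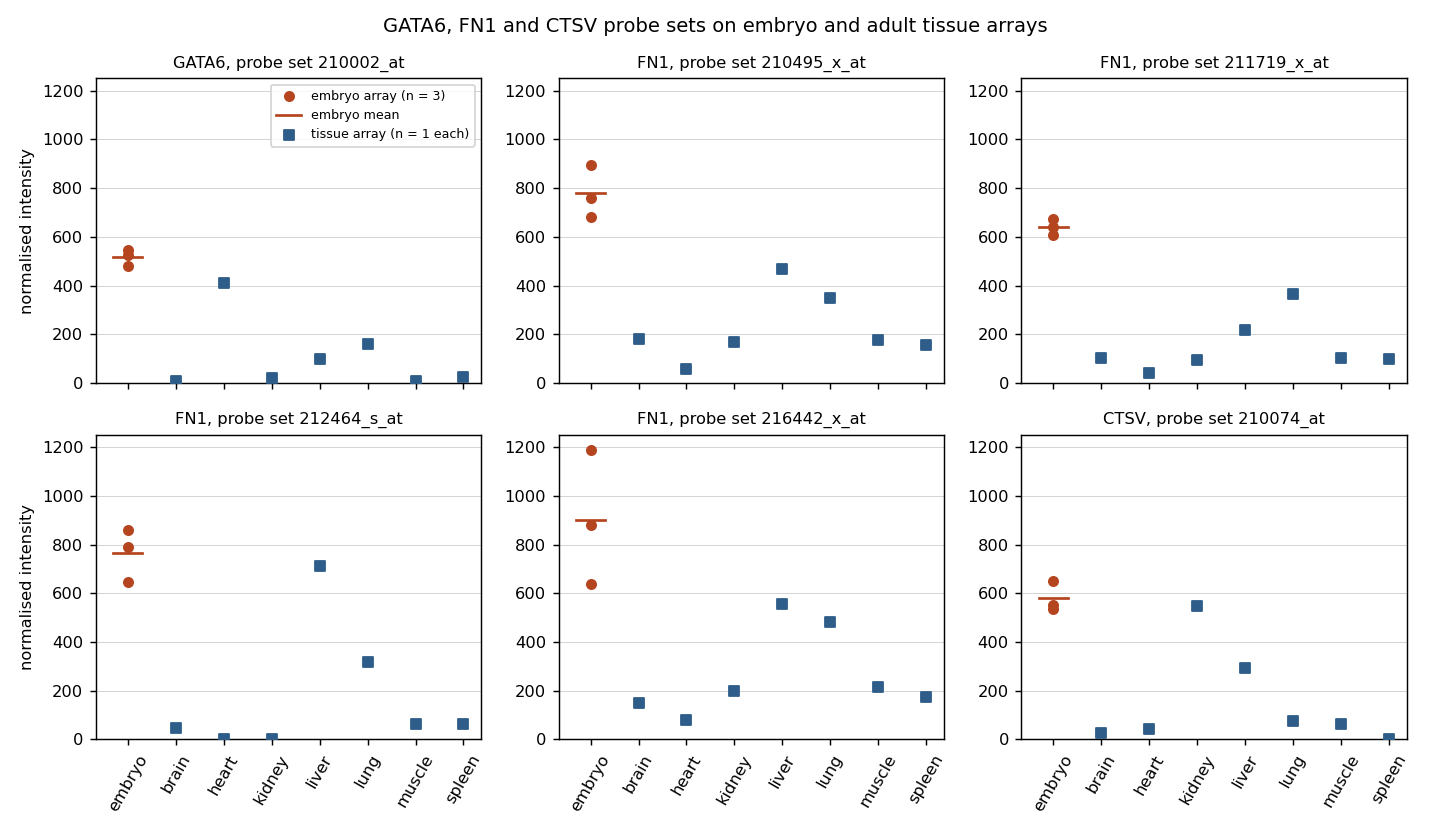
Normalised intensity (vertical axis, linear) of the 6 probe sets on the 3 embryo arrays (circles, with their mean as a line) and on 1 array of each of 7 organs (squares). Heart is the organ nearest to the embryos for GATA6, kidney for CTSV, and liver or lung for FN1, and liver on 212464_s_at and kidney for CTSV lie within the embryo range.

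In log2 terms the FN1 probe sets differed between embryos and organs by 1.65 (210495_x_at), 1.83 (211719_x_at), 2.31 (212464_s_at) and 1.66 (216442_x_at). The s set stood at the 3.1st percentile of the heart and kidney arrays, against the 95.9th of the liver array. Across the 7 organs the FN1 probe sets followed each other, with Pearson correlations of log2 values between 0.839 and 0.971 over the 6 pairs and Spearman correlations between 0.714 and 0.929. The probe sets share the RNA of each array and may share probes, so these correlations are a description only. For the pair 212464_s_at and 216442_x_at, Pearson's r was 0.920 over the 7 organs and 0.494 over 5 organs without liver and lung, so that agreement rested on these bright organs. For 210495_x_at and 211719_x_at it was 0.895, and 0.992 without liver and heart. That set of organs still held lung, at 350.3 and 367, far brighter than the rest, so the 0.992 rested largely on the single lung array. After normalisation, all 4 placed liver and lung on top, 3 of the 4 with liver first, and 3 of the 4 placed heart last.

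CTSV had no other probe set, but CTSL, the cathepsin L gene, followed it closely. The CTSL probe set, 202087_s_at, read 321, 262 and 249 on the embryo arrays, against 318 in kidney, 243 in liver, 143 in lung, 92.5 in muscle, 77.7 in heart, 63.8 in brain and 44.0 in spleen. The 7 organs came in the same order for both probe sets (Spearman's rho = 1, Pearson's r = 0.983, and 0.942 without kidney and liver). CTSL did not pass the test between embryos and organs, as its log2 values differed by 0.85 ± 0.35 (SE, limma adjusted p = 0.139), and kidney lay inside its embryo range too. The bovine RefSeq gene table lists CTSL, CTSL1 and CTSL2 as synonyms of bovine CTSV, and it lists CTSL1 for bovine CTSL. Both human probe sets could bind RNA of either bovine gene, so the CTSV signal is uncertain between these paralogs, and this was not tested.

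**Figure D2:**
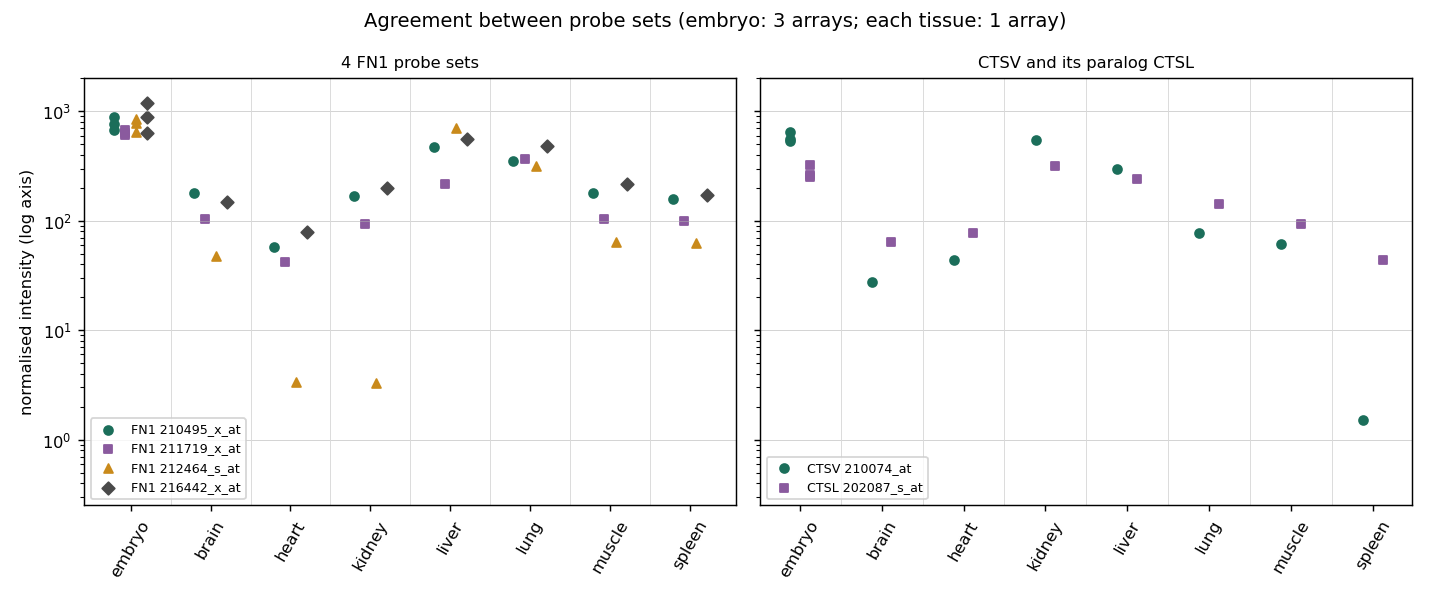
Normalised intensity (log axis) of the 4 FN1 probe sets (left) and of CTSV and CTSL (right), with 3 embryo arrays and 1 array per organ, and symbols shifted sideways for clarity. Liver and lung are the brightest organs of every FN1 set, and CTSV and CTSL order the 7 organs identically.

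Whether embryos stood clear of their brightest organ depended on how the arrays were scaled. After quantile normalisation, all 3 embryo values lay above all 7 organs for 4 of the 6 probe sets, against a background of 12.5% of all tested probe sets. With the intensities as deposited this held for 6 of 6 (background 13.3%), and with each array scaled to a common median for 2 of 6 (background 10.3%), which were 210495_x_at and 211719_x_at of FN1. The members were chosen on this contrast, so nothing is read from these counts. Over all tested probe sets, 8.87% rose and 3.22% fell in embryos by limma. The median log2 difference between embryos and organs over all tested probe sets was 0.22 with the values as deposited and 0.04 after normalisation.

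Which was higher, the embryo mean or the brightest organ, turned with the scaling for 1 probe set and with an embryo array left out for another. For FN1 212464_s_at the deposited values were 766, 862 and 836 on the embryo arrays and 572 in liver. Scaled to a common median they were 903, 784 and 552 on the embryo arrays, against 841 in liver, so the embryo mean was 0.887 times liver. GATA6 had deposited values of 481, 520.1 and 697 on the embryo arrays and 352 in heart, and values at a common median of 567, 473 and 459.9 on the embryo arrays and 466 in heart. CTSV had deposited values of 575, 576 and 728 on the embryo arrays and 468 in kidney, and at a common median 677, 523 and 480.3 on the embryo arrays and 532 in kidney. Without the first embryo array, the mean of the other 2 for CTSV fell just below kidney after normalisation, at a log2 ratio of -0.0082.

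**Figure D3:**
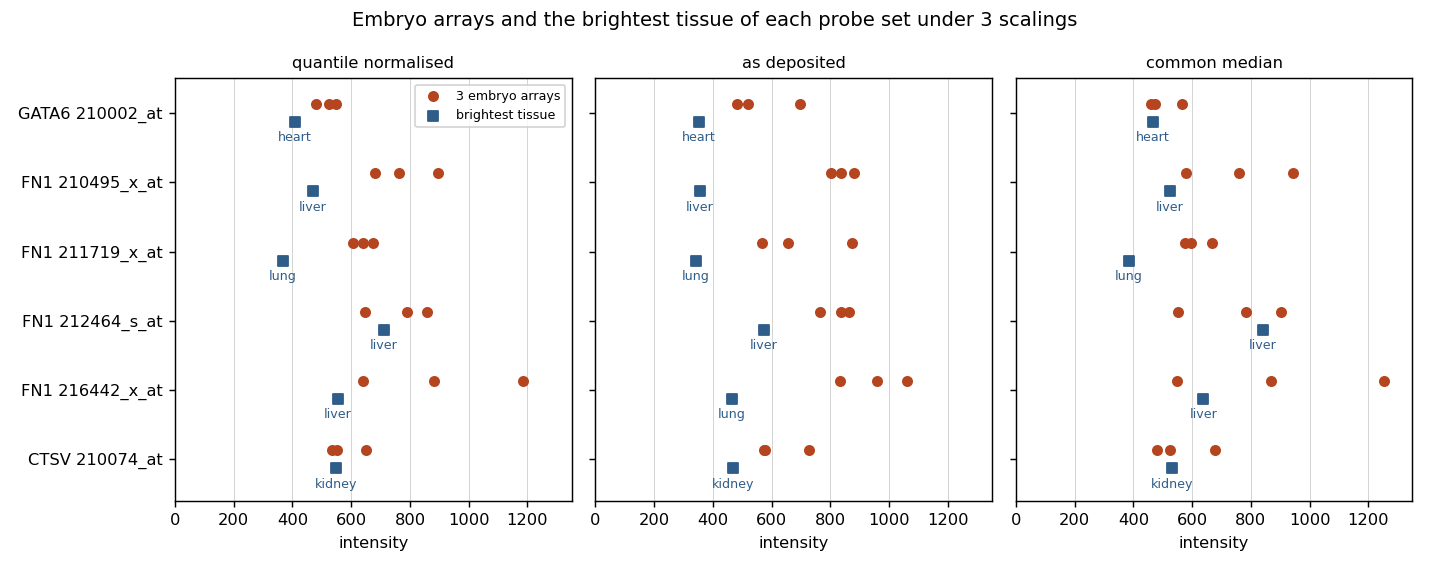
Intensities (horizontal axis, linear) of the 3 embryo arrays (circles) and of the brightest organ (squares, named) for each of the 6 probe sets, after quantile normalisation, as deposited and at a common median. All embryo arrays lie clear of the brightest organ for 4, 6 and 2 of the 6 probe sets in that order.

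The genes were chosen for their difference between embryos and organs, and their differences among the 7 organs were tested. For 4 of the 6 probe sets the embryo arrays had carried them past the filter, and the test takes its spread from those arrays too. A limma fit with 8 groups took its spread from the 3 embryo arrays alone, with 2 residual degrees of freedom before moderation, and so assumed that a single organ array varies like an embryo array. By its moderated F test across organs, 5 of the 6 member probe sets passed after Benjamini-Hochberg adjustment over all tested probe sets, where 34.3% of all tested probe sets passed, and nothing about the members as a group is read from this count. The limma adjusted p was 0.00791 for GATA6, 0.00782 for CTSV, and 0.00766, 0.0178 and 0.0241 for the FN1 sets 212464_s_at, 211719_x_at and 210495_x_at. FN1 216442_x_at did not pass (limma adjusted p = 0.0629), and it passed without the third embryo array (limma adjusted p = 0.00484). Without the second embryo array no probe set passed by limma, among 6413 tested, with adjusted p between 0.0679 and 0.187 for the members, while 2096 probe sets had an unadjusted p under 0.05. Without the first embryo array, 1238 probe sets passed, and without the third, 4319.

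Gaps between neighbouring organs were read against the 95% margin of a difference between 2 single arrays in that fit. For GATA6 this margin was 0.55 log2. Heart exceeded lung by 1.06 and liver exceeded spleen by 0.80, while the gap of 0.45 between lung and liver and all gaps among spleen, kidney, brain and muscle were smaller than the margin. The margin rests on the embryo arrays, whose spread may be technical, so it can be too narrow for gaps between organs. For CTSV, with a margin of 0.59, kidney exceeded liver by 0.76 and liver exceeded lung by 1.30, and no gap below lung was larger than the margin.

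For FN1 the gaps past the margin differed by probe set. On 212464_s_at, with a margin of 0.67, liver exceeded lung by 1.01 and lung exceeded muscle by 1.52. On 210495_x_at, with a margin of 0.65, the gap of 0.36 between liver and lung was smaller than the margin, lung exceeded brain by 0.74 and spleen exceeded heart by 0.81. On 211719_x_at, with a margin of 0.55, lung exceeded liver by 0.60 and liver exceeded brain by 0.71. On 216442_x_at no neighbouring gap reached the margin of 1.02.

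The 3 genes did not share an organ pattern. Across the 7 organs, Pearson's r of log2 values was between -0.19 and 0.12 for GATA6 with the FN1 probe sets, -0.06 for GATA6 with CTSV, and between 0.19 and 0.42 for CTSV with the FN1 probe sets. Heart was the brightest organ for GATA6 and the dimmest for 3 FN1 sets. Without heart and lung, r between GATA6 and the FN1 sets was 0.906 to 0.938 over the 5 remaining organs. Among these, GATA6 read 97.8 in liver and only 8.46 to 25.5 in brain, kidney, muscle and spleen. That r therefore rested largely on the single liver array, where FN1 was bright too, and shows no shared pattern. No p is given for these values, which describe 7 arrays.

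Likeness was measured as Pearson's r of log2 values over 8 levels, the 7 organs and the embryo mean, among 5859 probe sets with 1 symbol. The genes most like GATA6 were GPR107, a membrane protein of the Golgi (r = 0.967), LGALS4, an epithelial galectin (0.962), and C1QBP, a mitochondrial protein (0.953). LGALS4 read 567, 495 and 441 on the embryo arrays, against 236 in heart, 190.4 in lung and 105 in liver, and 23.9 to 63.9 in the other organs. The genes most like CTSV were CTSL (0.978), GAS2L1, a protein of the cytoskeleton (0.951), and BMP1, a matrix protease (0.929). For FN1, represented by the set with the highest mean signal, 216442_x_at, they were MORC3 (0.948), CREBL2 (0.919) and KDM4A, a histone demethylase (0.909). Over the 7 organs alone, the most alike were GPR107 (0.957), ATP5F1E, a subunit of ATP synthase (0.954), and LGALS4 (0.950) for GATA6, then CTSL (0.983), BMP1 (0.962) and GATM (0.951), an enzyme of creatine synthesis, for CTSV. For FN1 they were GAPVD1 (0.938), GRAMD1B (0.933) and CLCN7, a lysosomal chloride transporter (0.924). Each r rests on a single array per organ. The members were chosen for being higher in embryos, so likeness over the 8 levels partly restates that choice. The genes named are the highest of 5859 probe sets over few levels. Over the 8 levels, 11 probe sets passed an r of 0.9 with GATA6, 9 with FN1 and 7 with CTSV. Over the 7 organs alone, 18, 12 and 17 did, in the same order. Likeness was not tested, and nothing is read from which genes came first.

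Of 52 other genes listed for the hypoblast and yolk sac, 22 had a value and 12 were tested. By limma, 0 rose and 0 fell in embryos after Benjamini-Hochberg adjustment, and 2 had an unadjusted p under 0.05. Over all 4727 genes tested, represented by their brightest tested probe set, 7.87% rose and 3.19% fell. The median log2 difference of the 12 was -0.43, against 0.03 over all genes. GATA4 and SOX17, transcription factors that act with GATA6, had no probe set with values and were not analysed here. The label of hypoblast genes thus rests on few markers. Of the 12 tested beside the members, 5 differed upwards and 7 downwards in embryos, none past the threshold.

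Only 2 of the 20 listed transcription factors were tested, KLF4 and SOX18, and they differed in opposite directions. SOX18 averaged 81.9 in embryos and 169 in organs (-0.61 ± 0.27 SE, limma adjusted p = 0.168), not past the threshold. KLF4, also known as a pluripotency factor, averaged 1077 ± 44.3 (SD, n = 3 embryo arrays), against 337 ± 363 (SD, n = 7 organs), with lung at 1113. Its log2 difference of 1.87 ± 0.56 (SE) missed the threshold (limma adjusted p = 0.0511), and it passed under 5 of the 20 alternatives, among them without the lung array (limma adjusted p = 0.00578) and with the values as deposited (0.0359). PDGFRA, a receptor kinase of primitive endoderm, averaged 262 ± 18.8 (SD, n = 3 embryo arrays), against 233 ± 135 (SD, n = 7 organs) (0.25 ± 0.35 SE, limma adjusted p = 0.676), and its other probe set was similar at 195 and 153. Of the carrier proteins that yolk sac and liver share, APOE, an apolipoprotein, averaged 0.838 ± 0.228 (SD, n = 3 embryo arrays), against 287 ± 468 (SD, n = 7 organs), with liver at 1316 and values under 2 in heart, muscle and spleen. This came to -1.49 ± 0.81 (SE) on the log2 scale (limma adjusted p = 0.254). Its other probe sets averaged 11.9 and 77.1 in embryos, against 189 and 196 in organs, with log2 differences of -1.14 and -0.70. TTR, a carrier of thyroid hormone and retinol, averaged 24.3 in embryos and read 854 in liver, and it was too dim on the other arrays to be tested. BMP2, a growth factor of hypoblast, was also not tested, with 58.9, 97.1 and 538 on the embryo arrays, against 462 in muscle and 3.01 to 63.8 in the other organs, so the third embryo array stood apart from the other 2 embryo arrays, near muscle.

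Of the GATA family, GATA2 and GATA3, factors of trophectoderm, were also measured. GATA2 had 2 probe sets that disagreed. On 209710_at it rose, with 211 ± 27.6 (SD, n = 3 embryo arrays), against 21.3 ± 28.2 (SD, n = 7 organs) (1.64 ± 0.29 SE, limma adjusted p = 0.00356), and 210358_x_at, the set used for the list counts, averaged 495 in embryos and 493 in organs. GATA3 averaged 192 in embryos and 89.5 in organs (0.74 ± 0.24 SE, limma adjusted p = 0.0668). The GATA3 set and 209710_at passed the filter on dim signals only because of the embryo arrays. Over the 4 tested genes of the GATA list other than GATA6, each by its brightest probe set, 0 rose and 0 fell by limma (3 with an unadjusted p under 0.05), and TRPS1, a GATA-type repressor, had the largest difference at -1.31 (limma adjusted p = 0.0536), which passed without liver (0.00837).

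Of 9 tested genes of the basement membrane, the sheet of laminin and collagen under epithelia, 1 rose and 1 fell by limma, with a median of -0.26. AGRN, the proteoglycan agrin, rose, with 230.4 ± 17.1 (SD, n = 3 embryo arrays), against 111 ± 35.3 (SD, n = 7 organs) (0.75 ± 0.19 SE, limma adjusted p = 0.0274). Its probe set passed the filter on dim signals only because of the embryo arrays. LAMA2, a laminin chain of muscle basement membrane, fell, with 25.5 ± 6.63 (SD, n = 3 embryo arrays), against 417 ± 382 (SD, n = 7 organs) (-1.98 ± 0.54 SE, limma adjusted p = 0.0350). Its other tested probe sets differed by -1.21, -0.80 and -0.03, none past the threshold, and the last averaged 264 in embryos and 276 in organs. COL4A1, a type IV collagen chain, averaged 201 in embryos and 140.4 in organs, and SPARC, a collagen-binding protein, 1596 in embryos and 2782 in organs, neither past the threshold.

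Of 21 tested genes of fibronectin receptors and partners, 1 rose and 2 fell, with a median of -0.04. ITGA5, the alpha chain of the main fibronectin receptor, averaged 214 ± 21.3 (SD, n = 3 embryo arrays), against 227 ± 64.6 (SD, n = 7 organs) (-0.04 ± 0.20 SE, limma adjusted p = 0.918). ITGB1, its beta chain, averaged 172 ± 14.0 (SD, n = 3 embryo arrays), against 220.2 ± 123.2 (SD, n = 7 organs) (-0.13 ± 0.37 SE, limma adjusted p = 0.854). The gene that rose was FERMT2, the integrin activator kindlin-2 (1.02 ± 0.24 SE, limma adjusted p = 0.0150), whose other sets gave 1.89 and 0.19. The genes that fell were FBN1, fibrillin (-2.04 ± 0.43 SE, limma adjusted p = 0.0100), and FBLN1, fibulin (-1.83 ± 0.48 SE, limma adjusted p = 0.0296), both matrix proteins found beside fibronectin fibres. The calls of AGRN, LAMA2, FERMT2, FBN1 and FBLN1 were all lost with any embryo array left out (limma adjusted p between 0.0737 and 0.186) or with the embryo arrays averaged and counted as 1 sample (0.411 to 0.618). That of LAMA2 was also lost without kidney, muscle or spleen (limma adjusted p between 0.0519 and 0.0535), and that of FERMT2 at a common median (0.0515). The calls of LAMA2 (limma adjusted p = 0.0925) and FBLN1 (0.0649) were lost as well once the offset was made 4 times larger.

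Of 12 other tested cathepsins and cystatins, 0 rose and 0 fell by limma (3 with an unadjusted p under 0.05), with a median of 0.18. CTSA, a lysosomal protective protein, had the largest difference, with 227 ± 55.7 (SD, n = 3 embryo arrays), against 68.4 ± 90.4 (SD, n = 7 organs) (1.30 ± 0.47 SE, limma adjusted p = 0.0942), and it passed without spleen (0.0254). CTSB, a lysosomal cysteine protease, averaged 155 in embryos and 148 in organs. Of 17 tested genes of the FGF and ERK pathway, 0 rose and 0 fell by limma (2 with an unadjusted p under 0.05), with a median of -0.24. The receptor FGFR3 had the largest difference, with 1140.5 ± 90.7 (SD, n = 3 embryo arrays), against 412 ± 363 (SD, n = 7 organs) (1.87 ± 0.75 SE, limma adjusted p = 0.133). FGFR1 averaged 14.4 in embryos and 209 in organs (-1.44 ± 0.47 SE, limma adjusted p = 0.0693), and DUSP6, a phosphatase induced by ERK, 163 in embryos and 426 in organs (-0.79 ± 0.54 SE, limma adjusted p = 0.375).

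**Figure D4:**
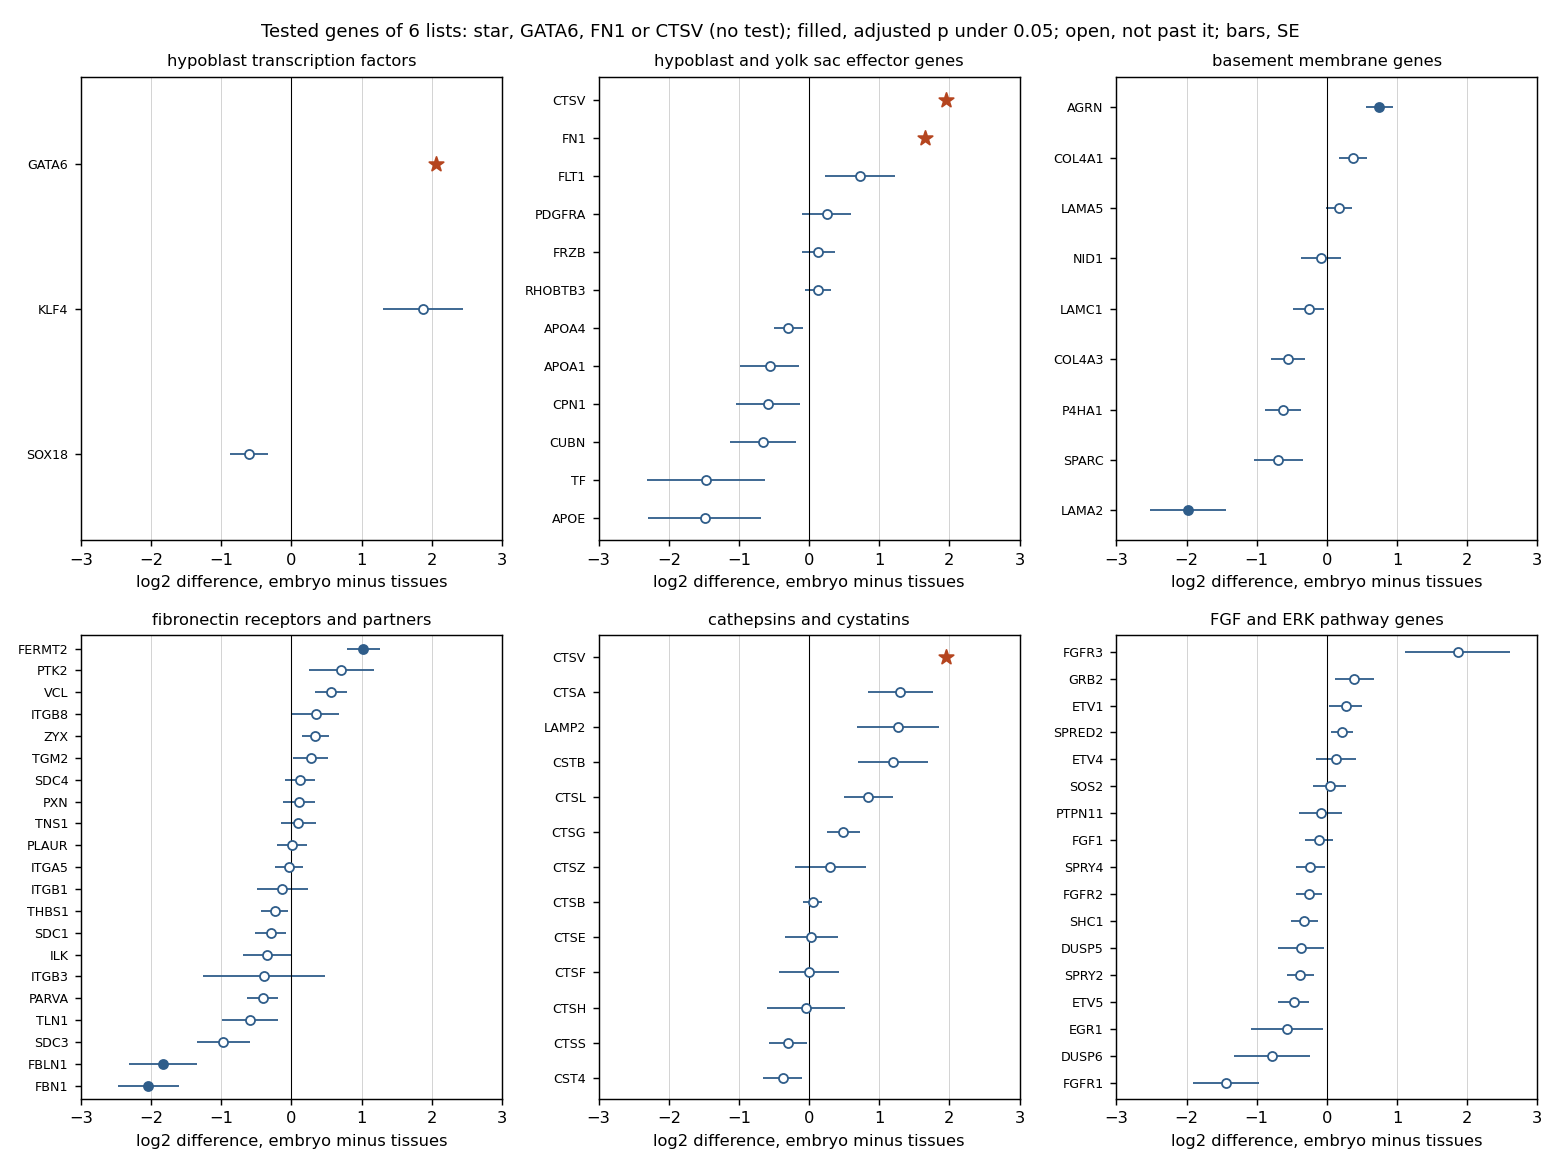
Log2 difference between the 3 embryo arrays and the 7 organ arrays (horizontal axis, positive when higher in embryos) for tested genes of 6 lists, with SE bars. Stars are GATA6, FN1 and CTSV, shown without a test, filled circles passed at an adjusted p of 0.05 and open circles did not, and among the other genes only AGRN, LAMA2, FERMT2, FBN1 and FBLN1 are filled.

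Markers of other cell types were measured beside these genes. Of 16 tested trophectoderm markers 6 rose and none fell, and the 17 measured ones summed to 15994 to 18127 on the embryo arrays, against 2806 to 4456 in organs. Of 6 tested pluripotency markers 3 rose, with sums of 3321 to 3760.3 on the embryo arrays and 738 to 2421 in organs. Among those that rose, KRT8, KRT18, TFAP2A, TFAP2C, SOX2, KLF5 and DNMT3B passed the filter on dim signals only because of the embryo arrays. Nothing is read from these counts. With the embryo arrays averaged, the calls of the trophectoderm gene ATP1B3 (limma adjusted p = 0.0631) and of the pluripotency genes SOX2 (0.217) and KLF5 (0.0674) were lost, and that of SOX2 also without the second embryo array (0.0503). The part of these cell types in the GATA6, FN1 and CTSV signals was not tested. Markers of fibroblasts and liver cells, both known sources of fibronectin, were measured as well. Of 8 tested fibroblast markers 5 fell and none rose in embryos, with sums of 1058 to 1139 on the embryo arrays and 1973 to 8813 in organs, highest in lung. COL3A1, a fibrillar collagen of fibroblasts, averaged 40.1 in embryos and 1091 in organs. Its other tested probe sets averaged 35.0 and 174 in embryos, against 589 and 198 in organs. DCN had a log2 difference of -2.31 on its brightest probe set, and of -1.95 and 0.72 on its other tested ones. With the embryo arrays averaged, the calls of COL3A1, COL1A1, DCN and FBN1 were lost (limma adjusted p between 0.0916 and 0.411), those of DCN and FBN1 also with any embryo array left out (0.0502 to 0.0858), and that of COL1A1 without the second (0.055). Another COL1A1 probe set rose, by 0.64 (limma adjusted p = 0.0380). The 12 measured liver markers summed to 506 to 646 on the embryo arrays, against 9172 in liver and 547 to 1435 in the other organs. The part of fibroblasts and liver cells in the FN1 signal was not tested.

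Among the remaining marker lists, by limma, 1 of 4 leukocyte and blood genes rose, this being HBB, whose 3 probe sets differed by 1.67, 1.45 and -0.78. The HBB call was lost with the embryo arrays averaged (limma adjusted p = 0.308) and without the first embryo array (0.0618). None of 3 granulosa and cumulus genes, 2 endothelial genes and 5 smooth muscle genes passed, with 1, 1 and 3 at an unadjusted p under 0.05. Of the organ lists, 1 of 3 kidney genes rose, 1 of 4 lung genes rose and 1 fell, and none of 5 brain, 1 heart, 2 liver, 1 skeletal muscle and 2 spleen genes passed, with 0 of them at an unadjusted p under 0.05. The kidney and lung genes that rose, SLC22A8 and PDPN, passed the filter on dim signals only because of the embryo arrays. The same holds for HBB on its brightest probe set.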

How the data were processed

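The authors deposited 1 linear intensity per probe set and array. Neither the software nor the scaling behind it is given in the sources used here. Values existed for 10219 of 22283 probe sets, 33 of them manufacturer's controls. Groups came from the sample titles.

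Trimmed means differed 1.90-fold between arrays, so arrays were quantile normalised. Values became log2(intensity + 72.2), the offset being the median 25th percentile. A probe set was tested if it exceeded the array median on 3 or more of 10 arrays, so the 3 embryo arrays alone could carry it past this filter. Tests were run in limma 3.58.1, under R 4.3.3 (eBayes with trend and robust, two-sided, Benjamini-Hochberg, threshold 0.05), embryos against organs and an F test among organs. The tests were tried on simulated data that gave embryo and organ arrays the same spread. Nothing about the real arrays is read from that trial. Figures used matplotlib 3.10.9.

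Symbols came from the human platform annotation, and 94.5% of the 4727 tested genes are in the bovine RefSeq table (ARS-UCD2.0). No sequence was used here. The members and gene lists were chosen with earlier results of these data known. Named genes were the members, 8 genes named whatever their result, up to 4 passing genes of each list by size of difference (otherwise the largest difference), and the 3 genes most alike by each measure. Of the trophectoderm, pluripotency and fibroblast genes so named, only COL3A1, COL1A1, DCN and FBN1 are given with levels or differences. Other genes were singled out after their values were seen. Alternatives were other scalings, offsets, filters and moderation, averaged embryo arrays, a 2-fold limit, each array left out and, for listed genes, the probe set of widest spread. Leaving out the third embryo array with muscle was chosen after seeing the data. The number of arrays limits the precision.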

Additional observations from a re-analysis of the deposited data

Results flagged for a closer look

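Of the 6 member probe sets, 1 had an organ far from the others by Dixon's test on the 7 normalised organ values. For GATA6, heart at 409 stood apart from lung at 159, and the gap was 0.624 of the range from muscle to heart, above the 95% critical value for 7 samples. Chance marks about 1 in 20 groups in this way, and 6 probe sets were examined. The organs are different tissues and not replicates of a group. FN1 212464_s_at came close with liver (0.556), followed by CTSV with kidney (0.464).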

How the results depend on the processing

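No paired analysis was possible because the organs have 1 array each and the numbers of the embryo arrays pair with nothing. Embryos against organs gave 601 probe sets higher and 218 lower. Both counts stayed within 1.5 times under 15 of 20 alternatives. With the embryo arrays averaged and counted as 1 sample, 73 were higher and 5 lower (609 at an unadjusted p under 0.05). With 1 embryo array left out, 63 to 122 were higher and 27 to 36 lower, and without the third embryo array and muscle, 87 and 29. Leaving out an embryo array also lowered the number tested, to between 6392 and 6433 of 6775, and took away 1 residual degree of freedom; the cause of the drop in calls was not tested. Differences among organs were called for 2325 probe sets, for 4097 without a filter and 1525 with a filter at the 75th percentile, which change how many were tested, for 0 to 4319 with 1 embryo array left out and for 3876 without the third embryo array and muscle; the cause of the spread between the left-out arrays was not tested. The log2 difference between embryos and organs stayed positive for all 6 member probe sets under the 15 settings that recomputed it, at 1.08 to 3.11. The log2 ratio of the embryo mean to the brightest organ turned negative for FN1 212464_s_at at a common median (-0.17) and for CTSV without the first embryo array (-0.0082, with -0.0082 to 0.1327 over the 3 embryo arrays left out in turn), and the cause was not tested. The F test among organs was also lost for FN1 210495_x_at with an offset 4 times larger (adjusted p = 0.0585) and without the first embryo array (0.0501), and for FN1 211719_x_at with the values as deposited (0.0697) and without lung (0.0536).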
